A study of Mus musculus with 9 samples.

Results

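Transcripts of 10 genes that encode matricellular proteins were followed through 3 times of culture of embryonic mouse lung cells. The genes were taken by name as Thbs1, Thbs2, Thbs3, Tnc, Postn, Tgfbi, Sparc, Sparcl1, Smoc1 and Smoc2. All 10 were found among the 27179 gene IDs of the count table, and all 10 were among the 14940 genes kept for testing. The cultures were pneumospheres, spheres grown in suspension from dissociated lungs of C57/B6 embryos at E11.5, with no treatment. After a short plating step on tissue culture plastic, the cells that stayed in the supernatant were grown on low-attachment plates with basic FGF, EGF and heparin in 5% O2, with passages on days 3 and 7. The libraries were made from polyadenylated RNA, 3 of them on each of days 3, 7 and 10. The study followed these libraries to see what changes in the cells during culture.

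Matricellular proteins are secreted into the extracellular matrix, where they act on cells through integrins, other surface receptors and bound growth factors rather than as load-bearing fibres. Thrombospondins, tenascin-C and periostin are known for their roles in developing and healing tissue, and thrombospondin-1 can release TGF-beta from its latent complex. Transcription of Tgfbi and Postn is known to respond to TGF-beta. SPARC and its relatives share a calcium-binding domain, and SPARC binds fibrillar and basement membrane collagens.

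Library totals ran from 20716878 to 30466712 counts, so that 3 counts, the most that a count of 0 allows, correspond to 0.0985 to 0.145 CPM. The lung epithelium markers Nkx2-1, Foxa1 and Shh had no count in any library, and the 10 genes of that marker list summed to between 0.0390 and 1.94 CPM, although the cultures were described as enriched for epithelium. Mesenchyme markers summed to 14220 to 15990 CPM on day 3 and to 39940 to 45530 CPM on day 10, and 7 of their 10 genes rose and 3 fell between those days. Most of the sum came from the collagen genes Col1a1, Col1a2 and Col3a1 (means of 11700, 6699 and 19780 CPM on day 10). The 3 that fell were Tbx4, Tbx5 and Tcf21 (log2 changes -2.73, -2.81 and -1.4). Erythroid markers fell from a sum of 990.3 to 1178 CPM on day 3 to at most 0.960 CPM on day 10 (6 of 6 tested genes lower), and neuron and glia markers fell from 130.9 to 175.8 CPM to at most 15.5 CPM (6 of 7 lower and 1 higher). Endothelial markers (178.4 to 211.7 CPM, then 126.0 to 138.1 CPM, 3 of 7 lower) and mesothelial markers (68.9 to 89.9 CPM, then 17.9 to 28.6 CPM, 3 of 3 tested lower) also had members that fell. Of the smooth muscle markers 4 of 6 rose (233.1 to 248.3 CPM summed on day 3, 407.1 to 821.8 CPM on day 10), and of the pericyte markers 2 of 5 rose and 1 fell (228.5 to 256.2 CPM, then 479.4 to 654.1 CPM). Of 4 tested genes each, 1 rose and 1 fell among megakaryocyte and platelet markers, 1 fell among leukocyte markers, and 1 rose and 2 fell among tendon and cartilage markers. Over all genes tested, 29.5% rose and 27.2% fell from day 3 to day 10, and several of these lists lay near those shares. These marker changes ran beside every change from day 3 given for the matricellular genes, and their part in them was not tested. In these bulk libraries, fewer cells of a type and less RNA per cell cannot be told apart.

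Between day 3 and day 10, 8 of the 10 genes rose and none fell, by edgeR's quasi-likelihood test with Benjamini-Hochberg adjustment over all genes. Among all genes tested, 29.5% rose and 27.2% fell in that comparison. At an unadjusted p under 0.05 no member was lower either, and DESeq2 also called 8 higher and 0 lower. The median log2 change of the members was 1.25, beside 0.002 over all genes. Between day 3 and day 7, 7 members rose and none fell (22.8% and 19.0% of all genes, again with 0 lower at an unadjusted p under 0.05 and 0 by DESeq2), with a median of 1.02. Between day 7 and day 10, Sparc was the only member that rose and none fell (4.41% and 4.1% of all genes, 0 lower at an unadjusted p under 0.05 and 0 by DESeq2), with a median of 0.12. In a single test for any difference among the 3 days, 7 of the 10 passed (53.5% of all genes), the exceptions being Tnc, Sparcl1 and Smoc1. The comparisons share libraries and are not independent of each other.

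The libraries of 9 members stood wholly above day 3 on day 7 (30.5% of all genes), all but Smoc1, and those of no member wholly below (29.5%). On day 10, 7 members stood wholly above day 3 (32.5%) and none wholly below (31.9%), with Tnc, Sparcl1 and Smoc1 overlapping. Between days 7 and 10 this held for Sparc alone (13.4% higher and 12.6% lower among all genes).

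**Figure D1:**
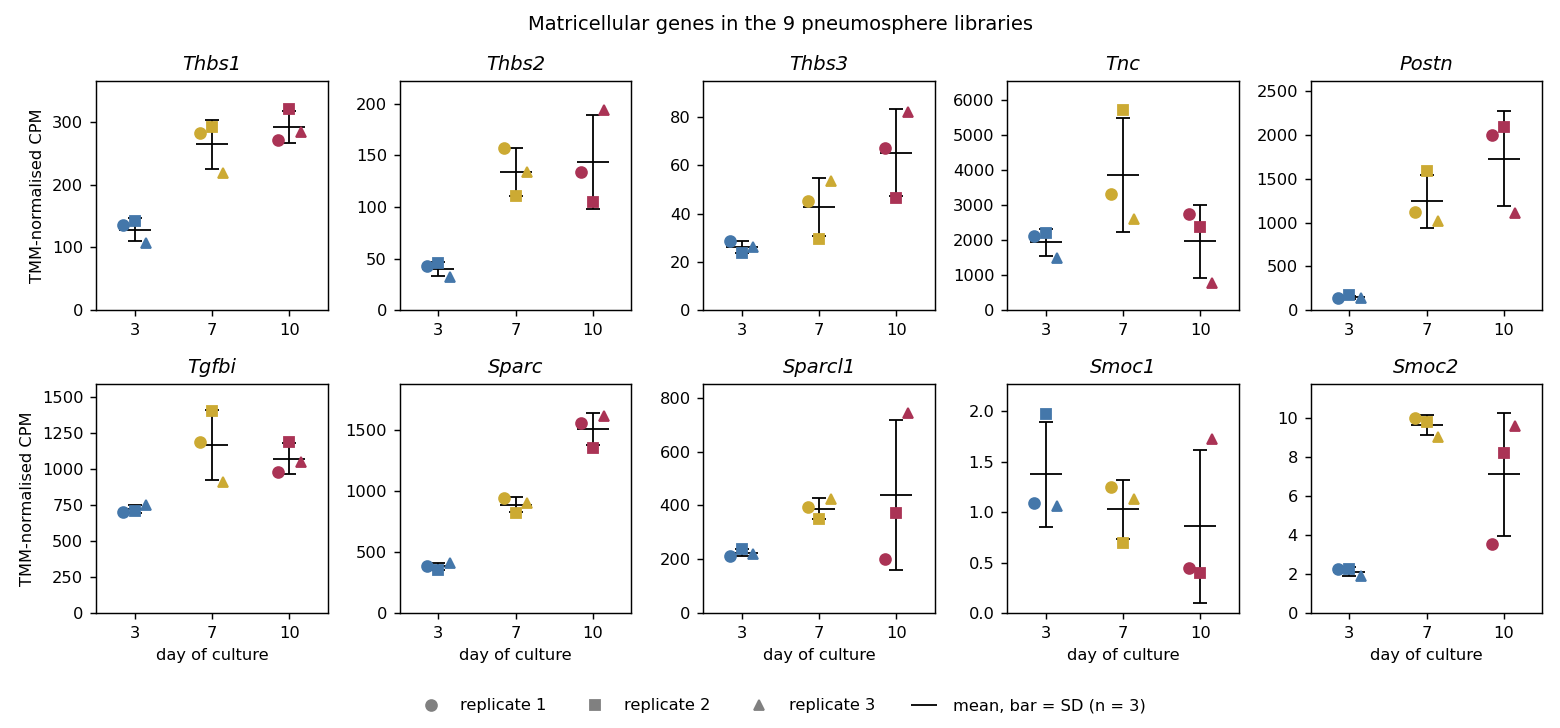
TMM-normalised CPM of each of the 10 genes (vertical axes, each from 0) against the day of culture, with a marker for each of the 9 libraries and the mean and SD of the 3 libraries of a day in black. Postn stood at 137 to 170.2 CPM on day 3 and at 1108 CPM or more on day 10, while the 3 day 10 libraries of Tnc and Sparcl1 were spread over a wide range.

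The promoters of Postn and Thbs2, with called rises, are shown beside that of Tnc, with no called change, so that their letters can be compared. They were picked with these changes known. RefSeq windows of 250 bases before the outermost annotated start (build GRCm38.p6) were at hand for 6 of the 10 members. The 3 windows printed touch no annotated exon, and run 5′ to 3′ on the strand of the gene. Capitals mark matches on either strand. The motifs searched were the TATA box with the letters TATAAA, the GC box with GGGCGG, the AP-1 site with TGANTCA, the SMAD box with CAGAC, the TEAD site with GGAATG, and the CArG box. No 2 matches overlap in these windows.
Postn, chr3:54359017-54359266, plus strand: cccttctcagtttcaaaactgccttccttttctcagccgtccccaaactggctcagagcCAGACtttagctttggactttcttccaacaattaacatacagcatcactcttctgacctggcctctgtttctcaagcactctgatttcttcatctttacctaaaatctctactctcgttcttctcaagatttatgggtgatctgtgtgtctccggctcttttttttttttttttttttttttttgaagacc
Thbs2, chr17:14694263-14694512, minus strand: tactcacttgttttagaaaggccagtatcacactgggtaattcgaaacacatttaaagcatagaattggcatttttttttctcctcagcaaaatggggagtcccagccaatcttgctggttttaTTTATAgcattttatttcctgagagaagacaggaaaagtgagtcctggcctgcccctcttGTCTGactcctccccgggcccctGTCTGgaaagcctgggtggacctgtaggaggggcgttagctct
Tnc, chr4:64047016-64047265, minus strand: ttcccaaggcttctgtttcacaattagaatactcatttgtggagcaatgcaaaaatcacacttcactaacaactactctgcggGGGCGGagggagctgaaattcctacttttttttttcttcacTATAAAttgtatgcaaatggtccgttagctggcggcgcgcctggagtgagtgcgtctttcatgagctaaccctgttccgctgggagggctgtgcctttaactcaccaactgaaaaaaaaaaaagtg

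The Postn window held 1 SMAD box, 191 bases before the start, and the Thbs2 window held 2, at 66 and 43 bases. The Tnc window held none and had a GC box at 167 bases. Of the other 3 windows at hand, all of genes that rose, Tgfbi had 2 SMAD boxes and a GC box, Sparc had 1 SMAD box, and Thbs3 had a GC box and no SMAD box, so that a SMAD box was not found in every gene that rose. The Sparc and Tgfbi windows hold annotated exon bases of their own genes (up to 210 and 63 bases in 1 exon), so they are not wholly upstream sequence. Both Thbs2 and Tnc had TATAAA letters beginning 126 bases before the start, on opposite strands. None of these 3 windows held an AP-1 site, a TEAD site or a CArG box. Of 27025 windows of the same length, 42.2% held a SMAD box, 33% a GC box, 13% a TATA box, 12.6% a TEAD site, 6.85% an AP-1 site and 1.41% a CArG box, so that such short letters are common. A match describes letters in the window and is not a binding site shown by these data.

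Postn, which encodes periostin, a protein of fasciclin domains that binds collagen and integrins (Entrez 50706, chromosome 3, 54359267 to 54391041), changed most. Its level was 139.1, 170.2 and 137.0 CPM in day 3 replicates 1 to 3, 1122, 1581 and 1017 CPM on day 7, and 1994, 2083 and 1108 CPM on day 10. Every later library thus stood above every day 3 library, while days 7 and 10 overlapped because day 10 replicate 3 lay among the day 7 values. The rise from day 3 to day 10 was 11.6-fold (95% interval 7.65 to 17.6, log2 change 3.54, SE 0.27, edgeR adjusted p = 6.45e-06), and 8.33-fold had been reached by day 7 (log2 change 3.06, SE 0.26, adjusted p = 2.71e-05). The change from day 7 to day 10 was 0.48 on the log2 scale (adjusted p = 0.258), and it was called without day 10 replicate 3 (0.72, adjusted p = 0.0314).

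Tgfbi encodes another secreted protein of fasciclin domains, named for its induction by TGF-beta (Entrez 21810, chromosome 13, 56609586 to 56639359). It was abundant from the start, with 700.2, 711.5 and 750.6 CPM on day 3, 1186, 1400 and 912.1 CPM on day 7, and 977.4, 1190 and 1047 CPM on day 10. All later libraries were above those of day 3, and the ranges of days 7 and 10 overlapped. Its rise by day 10 was 1.49-fold (log2 change 0.57, SE 0.14, edgeR adjusted p = 0.00626), the smallest called rise among the members, and by day 7 it was 1.62-fold (0.69, SE 0.14, adjusted p = 0.00342).

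The 3 thrombospondin genes all rose between day 3 and day 10. Thbs1 encodes thrombospondin-1, a trimer that binds CD47 and CD36 and activates latent TGF-beta (Entrez 21825, chromosome 2, 118111876 to 118127133). It stood at 136.1, 141.7 and 107.7 CPM on day 3, 281.2, 291.2 and 218.6 CPM on day 7, and 271.0, 320.8 and 283.4 CPM on day 10. Every library of days 7 and 10 was above the day 3 libraries, and days 7 and 10 overlapped. The log2 change was 1.04 (SE 0.13, edgeR adjusted p = 0.000249) by day 7 and 1.18 (SE 0.14, adjusted p = 5.74e-05) by day 10.

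Thbs2, the other trimeric thrombospondin (Entrez 21826, chromosome 17, 14665500 to 14694262), stood at 42.98, 45.38 and 32.21 CPM on day 3. It reached 157.5, 111.0 and 133.6 CPM on day 7 and 133.8, 104.6 and 193.8 CPM on day 10, again with no overlap with day 3. Its log2 change was 1.74 (SE 0.23, edgeR adjusted p = 0.000357) by day 7 and 1.84 (SE 0.23, adjusted p = 0.000134) by day 10. Smoc2 lies on the same chromosome, 260709 bases away, with no protein-coding gene of the RefSeq annotation between them.

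Thbs3 encodes a thrombospondin of the pentameric subgroup (Entrez 21827, chromosome 3, 89215180 to 89226841). Its level was 28.55, 23.54 and 26.22 CPM on day 3, 45.08, 29.66 and 53.60 CPM on day 7, and 67.02, 46.25 and 82.19 CPM on day 10. Day 7 replicate 2 was only just above the highest day 3 library, and days 7 and 10 overlapped. The rise by day 10 was called (log2 change 1.32, SE 0.24, edgeR adjusted p = 0.00131). That by day 7 passed narrowly (0.71, SE 0.24, adjusted p = 0.0391) and was lost in 9 of 18 alternative analyses, among them each one without a single day 3 library and those without day 7 replicate 1 or replicate 3, where the adjusted p reached 0.131. Exons of Thbs3 share 318 bases, or 6.59% of its exon length, with Mtx1 on the opposite strand, and whether reads were counted by strand is not given in the sources used here. The same limit holds for Thbs1 and Tnc, which share 3.42% and 2.26% of their exon length with Gm29233 and 8030451A03Rik on the opposite strand. Mtx1 stood between 32.3 and 38.8 CPM in the 9 libraries, with log2 changes of 0.02 by day 7 and -0.13 by day 10 (adjusted p = 0.885 and 0.167).

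**Figure D2:**
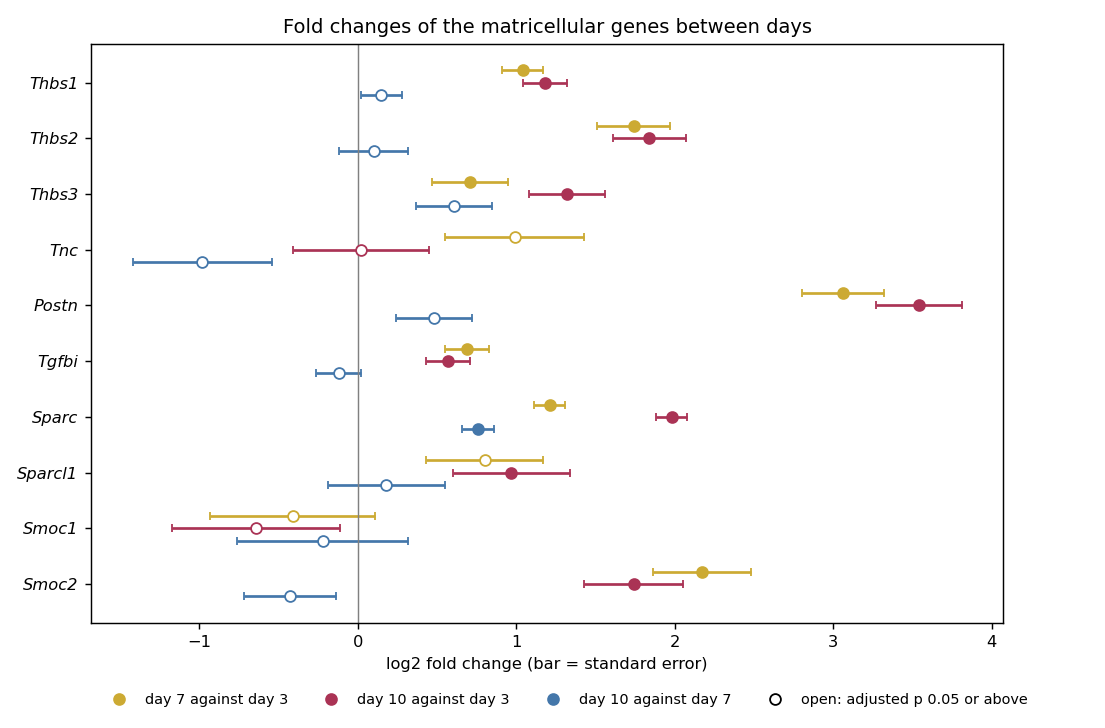
Log2 fold changes (horizontal axis) of the 10 genes between each pair of days, with the standard error as a bar and an open marker where the adjusted p was 0.05 or above. Filled markers lie to the right of 0 in 8 genes for day 10 against day 3 and only in Sparc for day 10 against day 7.

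Sparc rose in both steps of culture and had the only called change among the members between days 7 and 10. It encodes SPARC, or osteonectin, a collagen-binding glycoprotein (Entrez 20692, chromosome 11, 55394159 to 55420080). Its libraries stood at 385.2, 356.2 and 408.0 CPM on day 3, 940.7, 819.3 and 905.7 CPM on day 7, and 1555, 1358 and 1616 CPM on day 10. The 3 days did not overlap. The log2 change was 1.21 (SE 0.10, edgeR adjusted p = 1.31e-05) in the first step, 0.76 (SE 0.10, adjusted p = 0.00367) in the second, and 1.98 (SE 0.10, adjusted p = 3.69e-07) over both. Its coefficient of variation on day 10 was 8.93%, beside 8.89% for Thbs1 and 10.1% to 87.9% for the other members.

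Sparcl1 encodes hevin, or SPARC-like 1, which shares the collagen-binding and calcium-binding parts of SPARC (Entrez 13602, chromosome 5, 104079108 to 104114088). It was at 212.1, 237.6 and 220.9 CPM on day 3 and at 393.0, 347.6 and 424.3 CPM on day 7. On day 10 it ranged from 199.2 CPM in replicate 1, below every day 3 library, through 372.5 CPM to 744.7 CPM in replicate 3, above every other library. The log2 change from day 3 was 0.97 (SE 0.37, edgeR adjusted p = 0.0467) on day 10, and this call was lost in 14 of 18 alternative analyses. Without day 10 replicate 3 it was 0.36 (adjusted p = 0.213), and without day 10 replicate 1 it was 1.32 (adjusted p = 0.00133). The other single libraries ended the call as well (adjusted p = 0.0565 to 0.101). Day 7 did not overlap with day 3, at a log2 change of 0.80 (SE 0.37, adjusted p = 0.111) that was called where either day 10 replicate 1 or replicate 3 was left out (adjusted p = 0.0148 and 0.0124), since the spread of all 3 days enters the test.

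Smoc2 and Smoc1 encode the SMOC proteins, SPARC relatives of basement membranes, of which SMOC1 is known as a BMP antagonist. Both were scarce. Smoc2 (Entrez 64074, chromosome 17, 14279490 to 14404790) had 43 to 57 counts per library on day 3, or 2.26, 2.25 and 1.90 CPM, then 10.03, 9.83 and 9.05 CPM on day 7 and 3.57, 8.20 and 9.60 CPM on day 10. Every later library was above day 3, and day 10 replicate 1 lay well under the other later libraries. The log2 change was 2.17 (SE 0.31, edgeR adjusted p = 0.000448) by day 7 and 1.74 (SE 0.31, adjusted p = 0.000942) by day 10.

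Smoc1 (Entrez 64075, chromosome 12, 81026808 to 81186414) had 9 to 50 counts per library. Its level was 1.09, 1.97 and 1.06 CPM on day 3, 1.25, 0.699 and 1.13 CPM on day 7, and 0.446, 0.400 and 1.73 CPM on day 10. The 3 days overlapped, and the fold from day 3 to day 10 was 0.644 with a 95% interval of 0.282 to 1.47 (edgeR adjusted p = 0.332). Day 10 replicate 3 decided this value: without it the log2 change was -1.70 in place of -0.64, and Smoc1 was called lower (adjusted p = 0.00743).

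Tnc had no called change between any 2 days. It encodes tenascin-C, a large hexameric glycoprotein of embryonic mesenchyme and of wounds (Entrez 21923, chromosome 4, 63959785 to 64047015). Its level was 2118, 2207 and 1498 CPM on day 3, 3309, 5693 and 2588 CPM on day 7, and 2740, 2370 and 783.0 CPM on day 10. All day 7 libraries were above day 3, and day 10 replicate 3 was below every other library. The fold from day 3 to day 7 was 1.99 (95% interval 1.01 to 3.93, log2 change 0.99, SE 0.44, edgeR adjusted p = 0.0959), and that from day 7 to day 10 was 0.508 (0.258 to 1.00, adjusted p = 0.198).

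Between day 3 and day 10 the fold of Tnc was 1.01, with a 95% interval of 0.516 to 1.98 (edgeR adjusted p = 0.977). Without day 10 replicate 3 the rise to day 7 was called at an unchanged log2 change of 0.99 (adjusted p = 0.0260), and the log2 change to day 10 was 0.40 (adjusted p = 0.333). With all 9 libraries the log2 change of Tnc from day 3 to day 10 was 0.02. Its sign turned with upper-quartile factors (-0.01) and with library size alone (-0.07). Of the counts of the 10 genes, not scaled by length, Tnc gave 47.1% to 56.6% on day 3, 41.3% to 55.4% on day 7 and 13.3% to 34.5% on day 10.

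Whether the step from day 7 to day 10 differed from the step from day 3 to day 7 was tested directly in the same model. The first step spans 4 days of culture and the second 3. For 4 members the second step was called lower than the first, beside 5.96% of all genes (2.06% were called higher, and none of the members). The difference of the steps was -2.58 (SE 0.41, edgeR adjusted p = 0.00527) for Postn, -2.60 (SE 0.49, adjusted p = 0.0115) for Smoc2, -1.63 (SE 0.38, adjusted p = 0.0297) for Thbs2 and -0.89 (SE 0.23, adjusted p = 0.0408) for Thbs1.

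The call of Postn held in all 17 alternative analyses of this test. That of Smoc2 ended without day 7 replicate 1 (adjusted p = 0.0537), that of Thbs2 in 6 alternatives and that of Thbs1 in 7. Among single libraries, the Thbs2 call needed day 3 replicates 1 and 3 and day 7 replicates 1 and 3 (adjusted p = 0.0540 to 0.132 without them). The Thbs1 call needed the 3 day 3 libraries, day 7 replicates 1 and 2 and day 10 replicate 1 (adjusted p = 0.0568 to 0.173 without them). Tgfbi (-0.82, adjusted p = 0.0728) and Tnc (-1.97, adjusted p = 0.148) did not pass, and Tgfbi was called without day 7 replicate 3 (-1.11, adjusted p = 0.0144). Sparc had a difference of -0.45 (adjusted p = 0.141) and Thbs3 one of -0.11 (adjusted p = 0.917).

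**Figure D3:**
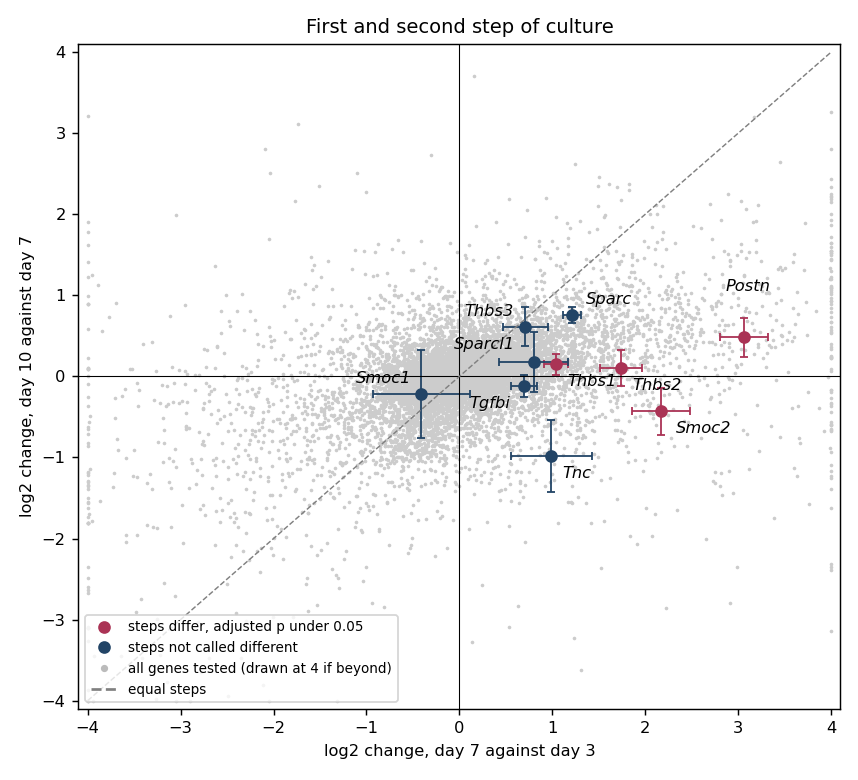
Log2 change from day 3 to day 7 (horizontal axis) against that from day 7 to day 10 (vertical axis), with standard errors for the 10 genes and all 14940 genes tested in grey, and a dashed line where both steps are equal. The 4 genes in red (Postn, Smoc2, Thbs2 and Thbs1), whose steps were called different, lie to the right with second steps from -0.43 to 0.48, and both axes share the day 7 libraries.

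To set the genes in order, levels were taken per length, as TMM-normalised CPM per kilobase of annotated exon. The length was the union of all annotated exons of a gene, whichever transcripts were present, and the order depends on it. On day 3 the order began with Tnc (249.7 ± 49.7, SD, n = 3) and Tgfbi (191.1 ± 7.01), whose libraries overlapped, followed by Sparc (101.2 ± 6.85) and Sparcl1 (76.1 ± 4.42). Thbs1 (21.2 ± 3.01) and Postn (17.1 ± 2.14) overlapped, as did Thbs2 (5.74 ± 1.00) with Thbs3 (5.41 ± 0.520) and Smoc1 (0.393 ± 0.148) with Smoc2 (0.307 ± 0.0300). The order thus fell into separate tiers, with the SMOC genes far below the rest.

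By day 10 Sparc led on this scale, at 398.5 ± 35.6 CPM per kilobase, above every library of the next gene. Tgfbi (284.1 ± 28.8), Tnc (252.7 ± 134), Postn (198.6 ± 61.9) and Sparcl1 (149.4 ± 94.9) followed, each overlapping the next. Thbs1 (48.0 ± 4.27) stood apart from these and from Thbs2 (20.6 ± 6.50), which overlapped with Thbs3 (13.5 ± 3.74). Smoc2 (1.03 ± 0.454) was then above Smoc1 (0.246 ± 0.216) in every library. Per length, Postn had moved from the level of Thbs1 on day 3 to that of Sparcl1 on day 7 (142.5 ± 34.4 and 132.2 ± 13.1, with overlapping libraries). Without scaling by length, Postn was at 1240 ± 300 CPM and Sparcl1 at 388.3 ± 38.6 CPM on day 7. On day 10 the unscaled means of Tnc (1964 ± 1039 CPM) and Postn (1728 ± 539 CPM) stood above that of Sparc (1510 ± 135 CPM).

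**Figure D4:**
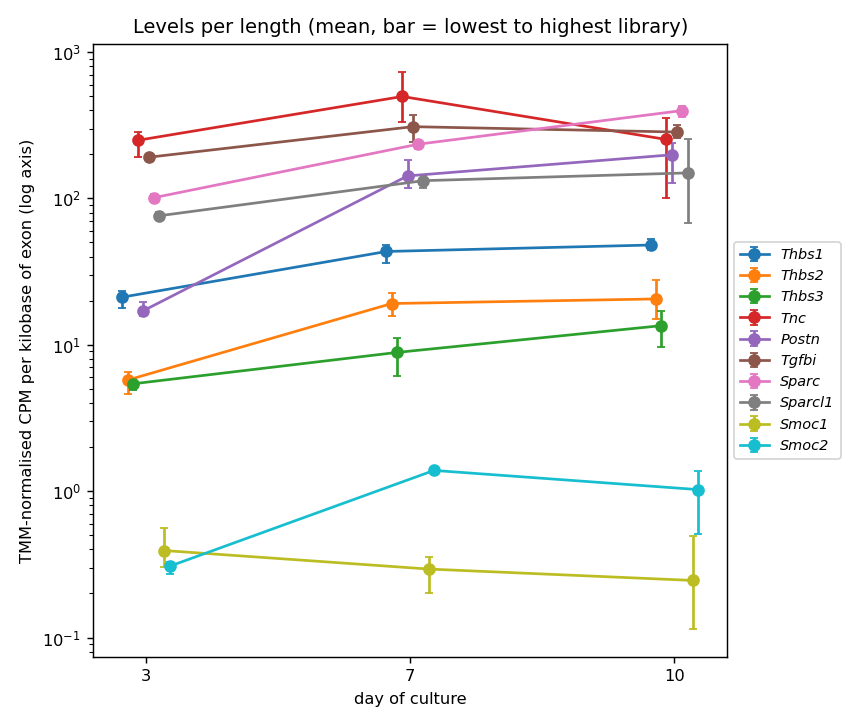
TMM-normalised CPM per kilobase of exon (vertical axis, logarithmic) of the 10 genes on days 3, 7 and 10, as the mean of 3 libraries with a bar from the lowest to the highest library. Sparc leads on day 10 at 398.5, Postn climbs from 17.1 to 198.6, and the means of Smoc1 and Smoc2 stay at 1.39 or less.

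The members did not all vary together among the libraries of a day. On day 7, replicate 2 was the highest library for Thbs1, Tnc, Postn and Tgfbi and the lowest for Thbs2, Thbs3, Sparc, Sparcl1 and Smoc1. On day 10, replicate 3 was the highest for Thbs2, Thbs3, Sparc, Sparcl1, Smoc1 and Smoc2 and the lowest for Tnc and Postn. In that library the mitotic kinase gene Aurkb was at 18.2 CPM, beside 40.8 and 41.7 CPM in day 10 replicates 1 and 2, and the part of this difference in the values was not tested. On day 3, replicate 2 was the highest for Thbs1, Thbs2, Tnc, Postn, Sparcl1 and Smoc1 and the lowest for Thbs3 and Sparc. Replicate 3 of that day was the lowest for Thbs1, Thbs2, Tnc, Postn, Smoc1 and Smoc2, so that many members moved together there. In day 3 replicate 2 a single gene ID held 6.79% of the counts (at most 0.515% in the other libraries). Without both day 3 replicate 2 and day 10 replicate 3, 7 members rose and 1, Smoc1, fell from day 3 to day 10, and 8 rose from day 3 to day 7.

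The genes whose centred log2 profile over the 9 libraries lay nearest to each member were sought among 9772 genes that averaged 10 CPM or more, by the root mean square distance on the log2 scale. Nearest to Tgfbi were Rps6ka1, a kinase gene (distance 0.076), and 2310011J03Rik (0.108), and nearest to Thbs1 were Plekhf1 (0.083) and Cped1 (0.085). For Sparc they were Tmem63a (0.093) and Mcur1 (0.101), and for Thbs3 the metalloproteinase gene Mmp23 (0.10) and Arap2 (0.127). Postn was nearest to Qpct, a glutaminyl cyclase gene (0.180), and to Lmna, which encodes lamins A and C (0.265). Thbs2 was nearest to Itpr2 (0.185) and to the clock gene Per1 (0.189), and Sparcl1 to Pgbd5 (0.201) and Camk1g (0.211). Smoc1 was nearest to the chromatin remodeller gene Chd7 (0.267) and to Pgm5 (0.333). Smoc2 was nearest to Ppp1r3c (0.299) and the Wnt receptor gene Fzd5 (0.309), and Tnc to Cttnbp2 (0.307) and Rgs2 (0.310). These distances describe 9 libraries in 3 days and carry no test.

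Other genes of matricellular proteins moved in both directions. Of 16 genes in that list, 14 were tested, of which 8 rose and 3 fell from day 3 to day 10 (29.5% and 27.2% of all genes), with a median log2 change of 1.17. The 3 that fell were Tnr, Spock3 and Ccn6. From day 3 to day 7, 10 rose and Tnr fell (22.8% and 19.0% of all genes), and from day 7 to day 10, Spock2 rose and Thbs4 and Spock3 fell (4.41% and 4.1%). Comp, which encodes thrombospondin-5 of cartilage and tendon, went from 0.167 ± 0.111 CPM (12 counts in all) to 21.5 ± 18.2 CPM, a log2 change of 6.97 (SE 0.95, edgeR adjusted p = 0.000255), and the osteopontin gene Spp1 rose from 2.46 ± 1.33 to 112.4 ± 98.4 CPM (5.51, SE 0.75, adjusted p = 0.000327). Without day 10 replicate 1 these changes were 6.01 and 4.52. Ccn2, a matricellular growth factor gene that responds to TGF-beta and YAP, rose from 1.09 ± 0.205 to 35.5 ± 14.2 CPM (5.02, SE 0.36, adjusted p = 4.31e-06).

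Among the remaining thrombospondins and tenascins, chosen for mention after their values were seen, Thbs4 was at 99.3 ± 14.1, 373.4 ± 143 and 88.8 ± 42.7 CPM on the 3 days (n = 3). It rose by 1.91 on the log2 scale to day 7 (edgeR adjusted p = 0.00274) and fell by 2.07 from day 7 to day 10 (adjusted p = 0.0130). The 6 tendon and cartilage markers summed to 140.7 to 167.1 CPM on day 3, 196.2 to 504.8 CPM on day 7 and 41.0 to 194.5 CPM on day 10. Of their 4 tested genes, Tnmd rose to day 7, and Scx and Mkx fell from day 7 to day 10, and the part of these markers in the values of Thbs4 and Comp was not tested. Tnr, the tenascin of the nervous system, fell from 1.65 ± 0.288 CPM to 0.0299 ± 0.0263 CPM by day 10 (2 counts in all, adjusted p = 3.4e-05), beside the fall of the neuron and glia markers, whose part in it was not tested. Tnxb rose from 3.78 ± 0.683 to 25.5 ± 25.0 CPM (log2 change 2.76, SE 0.71, adjusted p = 0.00906). Tnn had 9 counts in all on day 10 and was not tested.

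Of 15 genes for receptors and integrin chains that bind these proteins, 14 were tested, and 7 rose and 1, Stab1, fell from day 3 to day 10 (29.5% and 27.2% of all genes), with a median log2 change of 0.33. Scaling by library size alone gave 3 falls, and 6 other alternatives gave 2, among them the fit without day 10 replicate 1. Between day 3 and day 7, 7 rose and Itga9 fell (22.8% and 19.0% of all genes). From day 7 to day 10, Itgb3 and Itga9 rose and Cd36, a thrombospondin receptor gene, fell (4.41% and 4.1% of all genes). The level of Cd36 was 189.0 ± 5.10 CPM on day 3, 377.6 ± 23.3 CPM on day 7 and 164.0 ± 14.4 CPM on day 10. It rose to day 7 (log2 change 1.0, SE 0.08, edgeR adjusted p = 1.46e-05). It then fell to day 10 (log2 change -1.20, SE 0.08, adjusted p = 0.000489), where it was not called different from day 3 (-0.2, adjusted p = 0.0517). Itgb3, the partner of the alpha-v integrin chain that binds periostin and thrombospondin, rose from 5.15 ± 1.62 to 17.1 ± 1.25 CPM (log2 change 1.73, SE 0.20, edgeR adjusted p = 5.67e-05). Sdc4, a heparan sulfate syndecan, rose from 10.4 ± 0.562 to 31.4 ± 12.2 CPM (1.59, SE 0.27, adjusted p = 0.000823). Cd47, the receptor of the thrombospondin-1 carboxyl end, rose from 18.6 ± 2.72 to 38.5 ± 10.3 CPM (1.05, SE 0.23, adjusted p = 0.00338).

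In the TGF-beta list all 14 genes were tested, and 6 rose and 1 fell from day 3 to day 10 (29.5% and 27.2% of all genes), with a median log2 change of 0.36. Scaling by library size alone gave 2 falls, as did leaving out day 10 replicate 3. Between day 3 and day 7, 6 rose and 2 fell (22.8% and 19.0% of all genes). From day 7 to day 10 the 4 called genes, Tgfb3, Smad7, Ltbp1 and Ltbp2, all fell (4.1% of all genes). Of these, Tgfb3, Smad7 and Ltbp2 had been called higher by day 7 (log2 changes 0.71, 0.97 and 4.65), while Ltbp1 had fallen (-1.87). On day 10, Tgfb3 and Smad7 were not called different from day 3 (0.02 and 0.37), and Ltbp2 was still called higher (2.33). Ltbp1, which tethers latent TGF-beta to the matrix, was the gene that fell by day 10, from 20.3 ± 3.80 to 1.39 ± 0.512 CPM (log2 change -3.86, SE 0.28, edgeR adjusted p = 3.33e-06). Its relative Ltbp3 rose from 125.8 ± 8.96 to 339.2 ± 67.2 CPM (1.43, SE 0.13, adjusted p = 1.22e-05). Ltbp4, of the same family of latent TGF-beta binding proteins, rose from 498.3 ± 38.1 to 1134 ± 74.3 CPM (1.19, SE 0.12, adjusted p = 2.15e-05).

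**Figure D5:**
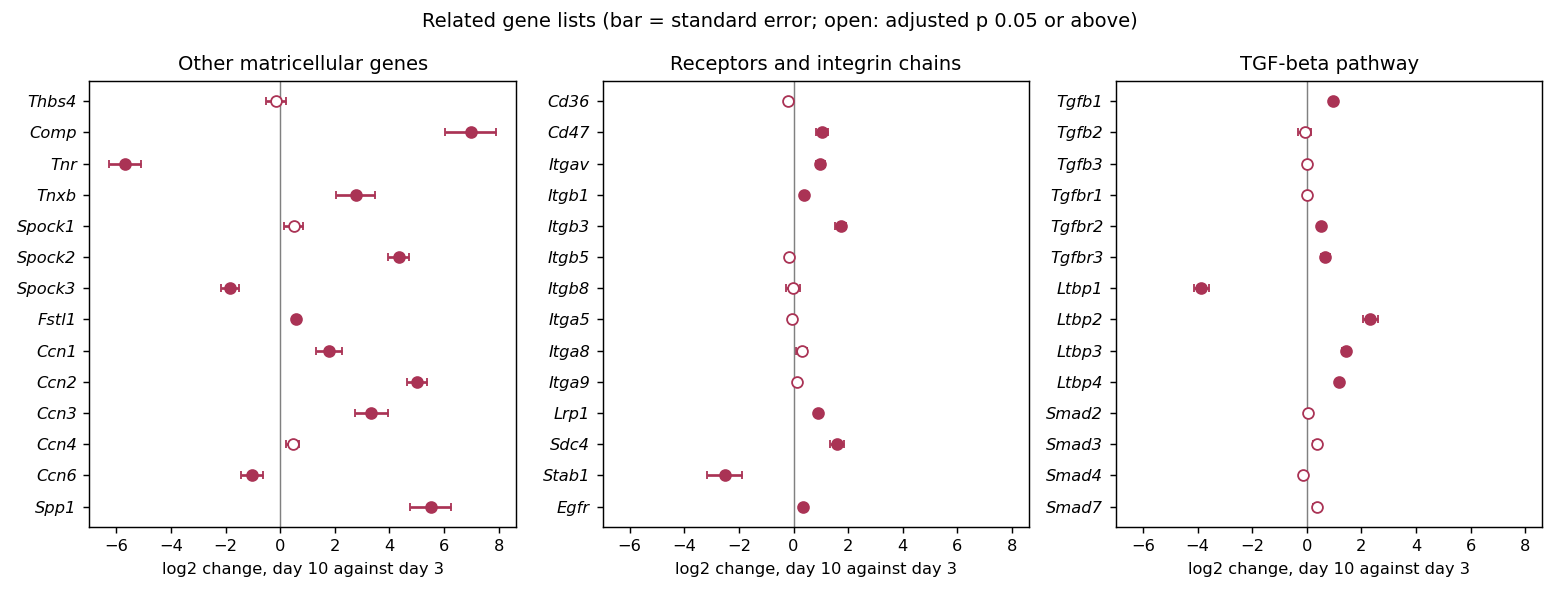
Log2 change from day 3 to day 10 (horizontal axis) with its standard error for the tested genes of the 3 related lists, with open markers where the adjusted p was 0.05 or above. Comp, Spp1 and Ccn2 lie at 5.02 or more, most receptors lie between -1 and 2, and Ltbp1 lies at -3.86 among TGF-beta genes that are near or above 0.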

How the data were processed

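The deposited table holds raw read counts per Entrez gene ID for 9 libraries. Per the submitters' processing notes, the authors counted reads with featureCounts on mouse build mm10. The sources used here do not give the aligner, the annotation, the strand setting or the handling of multi-mapped reads. Of 27179 IDs, 25275 were named from RefSeq (GRCm38.p6) and 18 from GENCODE M21, and 1886 stayed unnamed. Coordinates are those of RefSeq, and exon lengths are the union of GENCODE M21 exons of each gene.

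Genes were kept by filterByExpr (14940), scaled by TMM and fitted with edgeR 4.0.16 (R 4.3.3, robust quasi-likelihood, no covariate) over all 9 libraries, and called at a Benjamini-Hochberg adjusted p under 0.05. The procedure was tested on simulated data. Levels are TMM-normalised CPM, mean ± SD of 3 libraries. Each standard error is the size of the log2 change over √F, and 95% intervals use the t quantile of the fit. Centred profiles use log2 CPM with a prior count of 2. Alternatives were other scalings and filters, DESeq2 1.42.0, fits of 2 days, a replicate block and left-out libraries. The labels do not tie the 3 libraries of a day to separate litters or cultures, so p-values measure the spread between these samples, which may be technical. No pair of replicates agreed within counting noise (chi-square per degree of freedom 8.05 or more).

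The members, the related lists and the markers were chosen with earlier results of these data known. All 10 members are named in every comparison with the 2 nearest genes of each and, from each related list, up to 3 called genes with the largest log2 change from day 3 to day 10 and a mean of at least 10 CPM on either day. Further genes of these lists, such as Cd36, Stab1, Ltbp2 and Ccn6, were named outside this rule, after their values were seen. One gene of the TGF-beta list is not reported here and was left out of its counts. Counting floors cover counting error only.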

Additional observations from a re-analysis of the deposited data

How the results depend on the processing

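Over 710 alternative values of the 10 members, 637 kept their direction and side of the threshold, 37 lost a call, 16 gained one and 20 turned sign, none of which had been called. All called directions were the same under the 3 other scalings. Members higher from day 3 to day 10 numbered 7 to 8 in every alternative, and those higher from day 3 to day 7 numbered 6 to 9. Members lower on day 10 than on day 3 were 0 to 1 with a library left out, and 1 in a fit, chosen after seeing the data, that lacked day 3 replicate 2 as well as day 10 replicate 3. Members higher from day 7 to day 10 were 1 to 2 with a library left out, 2 without those 2 libraries and 2 with the replicate block. Members whose steps differed were 1 to 4 with a library left out.

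Libraries of different days were compared by r across genes, after the mean of the day was subtracted from the log2 CPM of each gene. This r describes deviations from the day mean and not the likeness of expression levels. The subtraction also ties the values of same-numbered and different-numbered libraries to each other. Same-numbered libraries of different days had r from -0.069 to 0.433, over 0.1 in 5 of 9 pairs. Different-numbered libraries had r from -0.356 to 0.221. The labels do not say whether same-numbered libraries belong together. The main fit did not take the numbers as pairs, and the replicate block shows the values when they are. With the replicate block Tnc was called from day 3 to day 7 (0.94, adjusted p = 0.0322), Thbs3 from day 7 to day 10 (0.61, adjusted p = 0.0263) and Tnc between steps (-2.0, adjusted p = 0.0458), while Sparcl1 lost its call to day 10 (0.83, adjusted p = 0.0736) and Thbs2 that between steps (-1.62, adjusted p = 0.0508).

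Over all genes, 659 were called higher and 612 lower from day 7 to day 10. These counts were 437 higher with library size alone, 1070 and 1044 by the DESeq2 test, 190 and 118 with only the 2 days, and 146 to 764 and 164 to 804 with a library left out (146 and 164 without day 7 replicate 2).

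The sign turned for Tnc from day 3 to day 10 with upper-quartile factors (-0.01), library size alone (-0.07), the replicate block (-0.12) and a library left out (-0.30 to 0.40), and it was 0.50 without day 3 replicate 2 and day 10 replicate 3. From day 7 to day 10 the ranges with a library left out were -0.17 to 0.29 for Thbs2, -0.27 to 0.03 for Tgfbi, -0.44 to 0.52 for Sparcl1 and -1.28 to 0.13 for Smoc1. With those 2 libraries left out together they were -0.17 for Thbs2 and -0.44 for Sparcl1. The difference of the steps ranged from -0.52 to 0.28 for Thbs3 and from -0.87 to 0.54 for Smoc1 with a library left out, and was -1.23 for Smoc1 without both libraries. The causes of these differences were not tested. Smoc1 had 9 to 50 counts per library, the fewest of the members.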
